A study of Homo sapiens with 4 samples.

Results

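The Wnt ligands, their receptors and the proteins that carry or restrain the Wnt signal were examined in GIST-T1 cells given a mimic of miR-34a or a control RNA. The members were all non-control probes whose gene name in the scanner output begins with WNT, FZD or SFRP followed by a number, together with the probes of 20 named pathway genes (LRP5, LRP6, CTNNB1, LEF1, TCF7, TCF7L1, TCF7L2, AXIN1, AXIN2, APC, DKK1, DKK2, DKK3, DVL1, DVL2, DVL3, NKD1, LGR4, LGR5 and RNF43). This rule found 68 probes for 53 genes among the 50599 probes of the array, with 1 probe for 41 genes and several for 12. It used names and no measured value. WNT1, WNT3, LRP6, CTNNB1, LEF1 and AXIN2 were included as genes that have been reported as miR-34 targets.

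Wnt proteins are lipid-modified secreted ligands that bind a Frizzled receptor together with the co-receptor LRP5 or LRP6. In the canonical branch of the pathway, Dishevelled proteins (the DVL genes) then hold back a destruction complex built on APC and AXIN1, and β-catenin (CTNNB1) accumulates, enters the nucleus and acts with the LEF1 and TCF factors. Secreted DKK and SFRP proteins restrain the signal outside the cell, R-spondins strengthen it through LGR4 and LGR5, and AXIN2, NKD1 and RNF43 are feedback inhibitors that the pathway itself commonly induces.

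A miRNA recognizes its target transcripts mainly through its seed, bases 2 to 8 counted from the 5′ end. The mature sequence of the transfected miRNA is shown because the reported targeting of Wnt genes rests on this seed, and miR-449a and miR-449b are set beside it as miRNAs of the RefSeq table used here with the same seed. The study also counts miR-34b and miR-34c in the miR-34 family, and their sequences are not shown. Capitals mark the seed. In the RefSeq annotation of GRCh38.p14, hsa-miR-34a-5p lies at chr1:9151735-9151756 on the minus strand.
hsa-miR-34a-5p: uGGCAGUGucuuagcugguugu
hsa-miR-449a: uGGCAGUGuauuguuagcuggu
hsa-miR-449b-5p: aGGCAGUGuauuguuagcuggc

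GIST-T1 is an established human cell line from a gastrointestinal stromal tumor, a mesenchymal tumor of the gut wall that shares markers with its pacemaker cells, the interstitial cells of Cajal. For each transfection, 3000000 cells were given 100 pmol of either the mirVana miR-34a mimic or mirVana Negative Control #1 by nucleofection, and total RNA was taken after 48 h. Each condition was measured on 2 arrays, all from this one line and with no untransfected cells. The labels do not say whether the replicates came from separate transfections, so the spread between them may be technical. The arrays of a condition also lay side by side on the slide, so that position and condition cannot be told apart.

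The values below are log2 processed signals relative to the 75th percentile of the same array, so that 0 is the signal at that percentile and a difference of 1 is a doubling. A probe was called detected when the scanner software flagged it as well above background, which held for 41.8% to 45.2% of the probes on an array. Probes detected on both arrays of at least 1 condition were tested, 21474 in all (42.4%), with limma and Benjamini-Hochberg adjustment over all of them. Of the interstitial cell and GIST markers, KIT, ANO1, ETV1, CD34 and PRKCQ were detected on all 4 arrays. Of the markers of other cell types, CDH1, KRT20, PECAM1, S100B, SOX10 and MYH11 were detected on none, EPCAM and DES on all 4, CDH5 on the 2 control arrays, and PTPRC by 1 of 5 probes on 2 arrays. The 3 KIT probes were lower with the mimic by 0.70 to 0.74, EPCAM was higher by 0.41, and DES was lower by 0.39. CDH5 was lower by 0.97 by its measured means only, since it was not well above background with the mimic. Their part in the results below was not tested, and in RNA from a whole culture fewer cells of a type and less RNA per cell cannot be told apart.

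GIST-T1 cells had transcripts detected on all 4 arrays for most of the Wnt receptors and intracellular components and for 7 of the 19 ligand genes. Probes for 35 of the 53 genes were detected on all 4 arrays, and 36 genes with 42 probes could be tested. That is 61.8% of the member probes, against 42.4% of all probes of the array. Every Frizzled gene from FZD1 to FZD10 had a tested probe, and so did LRP5, LRP6 and LGR4. Of the 19 ligand genes, WNT3, WNT3A, WNT5A, WNT5B, WNT10A, WNT10B and WNT11 could be tested. Over the whole array, 16192 of 36337 gene names could be tested, and nothing is read from the ligand count. Detected on no array were 10 ligand genes: WNT1, WNT2, WNT4, WNT6, WNT7A, WNT7B, WNT8A, WNT9A, WNT9B and WNT16. The R-spondin receptor LGR5 and the secreted inhibitors DKK1, SFRP2, SFRP4 and SFRP5 were also detected on no array. The signals of the 24 probes that were never detected lay between -5.53 and -3.08, beside a lowest detected signal of -3.30 to -3.20 per array. For these 15 genes the arrays give only a rough upper bound and no difference between the conditions.

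**Figure D1:**
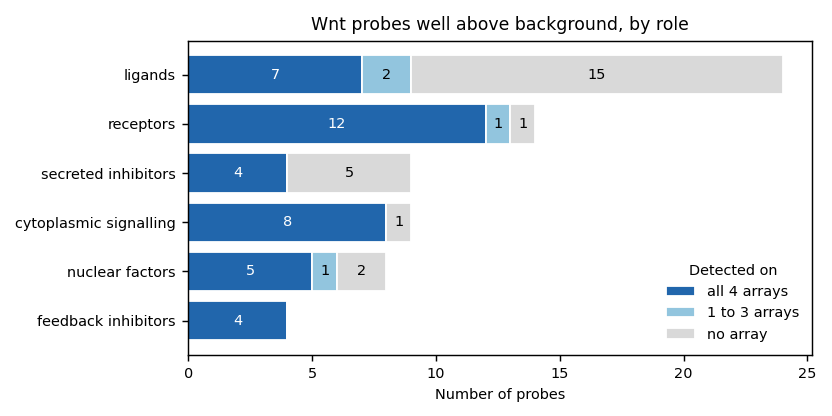
Number of Wnt probes (horizontal axis) in each role that were well above background on all 4 arrays, on 1 to 3 arrays or on no array. The ligands hold 15 of the 24 probes that were never detected, whereas 12 of the 14 receptor probes were detected on all 4 arrays. Of all probes, 41.8% to 45.2% were well above background on an array.

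The comparison of the mimic with the negative control asked how raising miR-34a alters the transcripts of the pathway. The Wnt transcripts moved in both directions and mostly by little. DKK2, LGR4 and 1 probe of TCF7L2 were more than 1.5-fold lower with the mimic. FZD5 passed this line by its measured means only, since it was not well above background with the mimic. Against the lowest detected signals of the mimic arrays it was 1.47-fold lower. No member was more than 1.5-fold higher. WNT5A, LRP5 and FZD6 had the largest differences upward among the tested probes, of 1.32- to 1.36-fold.

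No member passed the test. At a limma adjusted p under 0.05 there were 0 of 42 member probes and 0 of all tested probes (0%), and the smallest adjusted p over all tested probes was 0.0948. At an unadjusted limma p under 0.05, 6 member probes were lower (14.3%, against 11.6% of all tested probes) and 7 were higher (16.7%, against 12.7%). By measured means the 4 probes beyond 1.5-fold lower made up 9.52% of the members, against 4.8% of all tested probes, and the 0 beyond 1.5-fold higher stood against 2.11%. Of the 4, FZD5 and the TCF7L2 probe entered the test through the control arrays alone, which favours this direction, and nothing is read from the share. Among probes detected on all arrays, 2 of 40 members and 512 of 20068 probes in all were beyond 1.5-fold lower. With 2 arrays against 2, an exact permutation test of a single probe cannot go below p = 0.33.

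When limma's variance estimate was allowed to follow the signal, 8 member probes passed an adjusted p of 0.05. DKK2, LEF1 and LGR4 were lower (7.14% of members, against 3.6% of all tested probes), and DVL3, FZD4, FZD6, LRP5 and WNT5A were higher (11.9%, against 3.81%). Counting by separation alone, both mimic arrays lay below both control arrays for 16 member probes (38.1%, against 30.1% of all tested probes) and above them for 14 (33.3%, against 30.4%), while 12 overlapped. The median difference of the 42 probes was -0.08, and that of all tested probes was -0.0077.

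**Figure D2:**
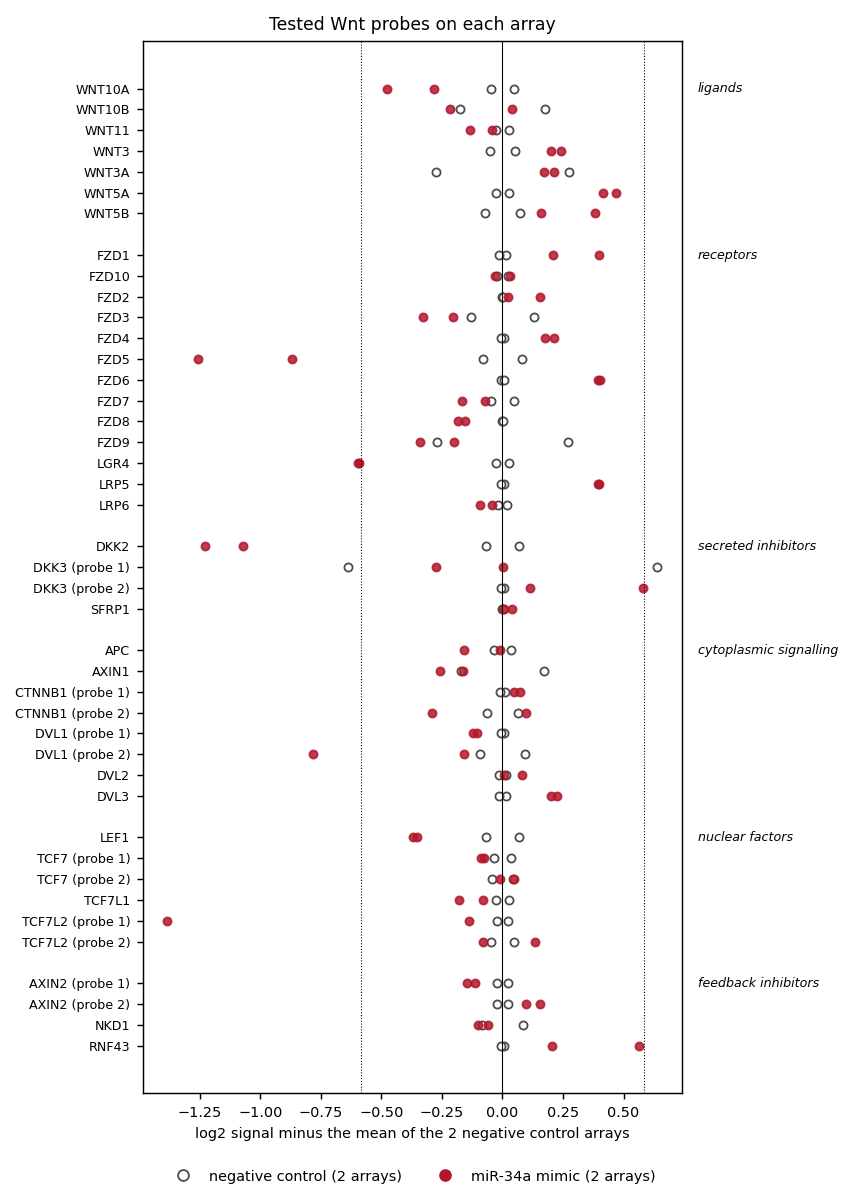
The 42 tested Wnt probes on each array, ordered by role, as the log2 signal minus the mean of the 2 negative control arrays of the same probe (horizontal axis). Filled points are the 2 mimic arrays, open points the 2 control arrays, and dotted lines mark 1.5-fold. DKK2, FZD5 and LGR4 lie to the left of the line with both mimic arrays, while a TCF7L2 probe and a DVL1 probe do so with 1 mimic array each.

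Among the ligands, WNT5A, which mainly signals without β-catenin, was higher with the mimic. Its probe at chr3:55499800-55499859 (hg19, as are all probe positions here) read 1.98 and 2.03 on the mimic arrays and 1.53 and 1.59 on the control arrays. The conditions did not overlap, and the difference of 0.44 (95% confidence interval 0.27 to 0.62, 1.36-fold) was several times the gap between the replicates of either condition. By limma its adjusted p was 0.0954, and 0.0195 with the variance trend.

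WNT3, a canonical ligand reported as a miR-34 target, was not lower in these cells. Its signals were -0.35 and -0.31 with the mimic and -0.60 and -0.50 with the control. The mimic arrays were the higher ones, by 0.22 (0.03 to 0.41; limma adjusted p = 0.177). WNT10A, another canonical ligand, read -2.27 and -2.46 against -2.03 and -1.94, lower by 0.38 (-0.66 to -0.10; limma adjusted p = 0.148) with no overlap. The other 4 tested ligands, WNT3A, WNT5B, WNT10B and WNT11, differed by -0.09 to 0.27, with limma adjusted p of 0.251 or more. WNT1 is a canonical ligand reported as a miR-34 target, and neither of its 2 probes was detected on any array.

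The tested receptor probes differed in both directions. Of 13 tested receptor probes, 8 were lower and 5 higher, with a median difference of -0.07, beside -0.0077 over all tested probes. The lower ones include FZD10 at -0.00053, and nothing is read from the split. LGR4, the receptor through which R-spondins keep Frizzled proteins at the surface, was lower with the mimic. At chr11:27387919-27387978 it read 0.12 and 0.13 on the mimic arrays and 0.75 and 0.69 on the control arrays. The 2 mimic arrays nearly coincided and lay well below both controls. The difference was -0.60 (-0.76 to -0.44, 1.51-fold), with a limma adjusted p of 0.0948 and 0.0176 with the variance trend. It sits just past the 1.5-fold line, and without control replicate 1 it was -0.57, just inside it.

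FZD5, a Frizzled receptor, was detected only in the controls. On the mimic arrays its probe at chr2:208627785-208627844 read -3.57 and -3.96 and was not well above background, and on the control arrays it read -2.78 and -2.62. Both mimic values were lower than both control values. Set against the lowest detected signals of the mimic arrays, FZD5 was 1.47-fold lower, and the measured means differed by 2.09-fold (limma adjusted p = 0.101). The 1.47-fold is not a strict lower bound, because a probe can read above the lowest detected signal and still not be detected. WNT8B, for example, read -2.73 and -2.62 on the control arrays and was well above background on only 1 of them. Because FZD5 entered the test through the control arrays alone, a difference of this direction was built into its selection.

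The co-receptors LRP5 and LRP6 did not behave alike. LRP5 at chr11:68216359-68216418 read 3.0 on both mimic arrays and 2.61 and 2.60 on the controls, higher by 0.40 (0.25 to 0.55, 1.32-fold; limma adjusted p = 0.0954, 0.0157 with the variance trend). LRP6, reported as a miR-34 target, read 2.93 and 2.98 against 3.0 and 3.04. Its difference of -0.07 (-0.23 to 0.10) was close to the gap between replicates and had a limma adjusted p of 0.494, and the interval leaves no room for a 1.5-fold decrease under this model. Whether the responses of LRP5 and LRP6 differ from each other was not tested.

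Among the other Frizzled genes, FZD6 read 1.22 and 1.21 with the mimic and 0.81 and 0.82 with the control, higher by 0.40 (0.25 to 0.55; limma adjusted p = 0.0954, 0.0267 with the variance trend). The replicates of both conditions differed by about 0.01, far less than the conditions did. FZD4, the receptor best known for Norrin signalling in vessels, read 5.48 and 5.44 against 5.27 and 5.26, higher by 0.19 (0.04 to 0.35; limma adjusted p = 0.163, 0.0471 with the variance trend). FZD1 was higher by 0.30 (0.05 to 0.56; limma adjusted p = 0.171), with 1.97 and 2.16 against 1.78 and 1.75. FZD8 was the 1 tested Frizzled besides FZD5 that was lower at an unadjusted p under 0.05, with 2.76 and 2.79 against 2.94 and 2.95, a difference of -0.17 (-0.32 to -0.02; limma adjusted p = 0.183). None of these 4 genes overlapped between the conditions, but they were named for an unadjusted limma p under 0.05, which favours such separation. Of all tested probes, 30.1% lay below and 30.4% above without overlap. FZD2, FZD3, FZD7, FZD9 and FZD10 differed by -0.27 to 0.09 with limma adjusted p of 0.28 or more, and for FZD10 the difference was -0.00053 (-0.17 to 0.17).

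Among the secreted inhibitors, DKK2, which binds LRP5 and LRP6 and usually blocks canonical signalling, was lower with the mimic by more than 1.5-fold. Its probe at chr4:107843650-107843709 read -2.53 and -2.69 on the mimic arrays and -1.39 and -1.53 on the control arrays, and was detected on all 4. The conditions were separated by about 1 log2 unit while replicates differed by 0.15 and 0.14. The difference was -1.15 (-1.42 to -0.88, 2.22-fold), with a limma adjusted p of 0.0948 and 0.0318 with the variance trend. Its size depended on the background correction: with normexp in place of the scanner's own correction it was -0.44 (limma adjusted p = 0.0358), no longer beyond 1.5-fold. SFRP1, a secreted Frizzled-related protein that can bind Wnt ligands, was readily detected and differed by 0.02 (-0.13 to 0.18). The 2 probes of DKK3, a divergent family member, gave -0.14 and 0.35 with limma adjusted p of 0.878 and 0.327, and the first of them read -2.55 and -1.27 on the 2 controls.

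In the cytoplasm no tested probe was beyond 1.5-fold, with differences of -0.47 to 0.21 over 8 probes. Both mimic arrays lay below both control arrays for 2 of them, the DVL1 probes. They lay above for 2, those of DVL3 and the brighter CTNNB1 probe. Of all tested probes, 30.1% lay below and 30.4% above. CTNNB1, the gene of β-catenin and a reported miR-34 target, had 2 tested probes. The probe at chr3:41281749-41281808 read 4.90 and 4.87 with the mimic and 4.84 and 4.81 with the control, a difference of 0.06 (-0.10 to 0.21; limma adjusted p = 0.521). The other, at chr3:41280687-41280746, read 1.42 and 1.81 against 1.77 and 1.65, a difference of -0.10 (-0.57 to 0.37; limma adjusted p = 0.729), and the conditions overlapped. Both intervals lie within 1.5-fold in either direction. Neither probe measures β-catenin protein.

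DVL3, a Dishevelled gene, read 4.12 and 4.09 with the mimic and 3.91 and 3.88 with the control, higher by 0.21 (0.06 to 0.37; limma adjusted p = 0.149, 0.0436 with the variance trend). DVL2 differed by 0.04, and the 2 DVL1 probes by -0.11 and -0.47 with limma adjusted p of 0.285 and 0.327. The scaffold genes of the destruction complex, APC and AXIN1, differed by -0.08 and -0.21 with overlapping conditions.

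Of the 6 tested probes of nuclear factors, 4 lay below the controls on both mimic arrays and 0 above, beside 30.1% and 30.4% of all tested probes, and 1 of the 4 is the TCF7L2 probe that entered through the controls alone. LEF1, a reported miR-34 target, was lower with the mimic. Its probe at chr4:108968746-108968805 read 3.50 and 3.52 on the mimic arrays and 3.94 and 3.81 on the control arrays. The conditions did not overlap, although the controls differed by 0.13. The difference was -0.36 (-0.57 to -0.15, 1.28-fold), with a limma adjusted p of 0.122 and 0.0304 with the variance trend. TCF7 and TCF7L1, which bind the same kind of site, differed by -0.13 to 0.02 over 3 probes with limma adjusted p of 0.32 or more.

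TCF7L2, another partner of β-catenin, was the member gene whose tested probes disagreed most. The probe at chr10:114911485-114911544 read -2.12 and -3.37 on the mimic arrays and -2.01 and -1.96 on the controls, and mimic replicate 2, the low one, was not well above background. Its difference was -0.76 (-2.12 to 0.60; limma adjusted p = 0.381), and without mimic replicate 2 it was -0.14. The probe at chr10:114905803-114905862 read 0.01 and -0.21 against -0.08 and -0.17, a difference of 0.03 (-0.27 to 0.32; limma adjusted p = 0.882) with overlap. The 1.5-fold decrease counted for TCF7L2 thus rests on 1 array, and 2 more of its probes were detected on none. Taking the brightest tested probe per gene left 3 member genes more than 1.5-fold lower by measured means: DKK2, LGR4 and FZD5. Against the lowest detected signals of the mimic arrays, FZD5 was only 1.47-fold lower.

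The feedback inhibitors, whose transcripts are often read as a sign of canonical Wnt activity, gave no common direction. AXIN2, also a reported miR-34 target, had a probe at chr17:63525389-63525448 with 0.10 and 0.13 against 0.22 and 0.27, lower by 0.13 (-0.29 to 0.03; limma adjusted p = 0.261). A second AXIN2 probe at chr17:63554388-63554447 had -1.05 and -1.11 against -1.18 and -1.22, higher by 0.13 (-0.05 to 0.30; limma adjusted p = 0.291). Each probe separated the conditions, but in opposite directions. NKD1 differed by -0.08 with overlap, and RNF43, a ubiquitin ligase that removes Frizzled from the surface, was higher by 0.39 (-0.03 to 0.80; limma adjusted p = 0.225).

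Of the 6 reported miR-34 targets, then, WNT1 was not detected, LEF1 was lower by 0.36, and LRP6, CTNNB1 and AXIN2 differed by 0.13 or less on every probe with limma adjusted p of 0.261 to 0.729, while WNT3 was higher by 0.22. The DNA letters that pair with the seed printed above are CACTGCC (bases 2 to 8) and ACTGCCA (bases 2 to 7 followed by an A). On the sense strand, as the probes are written, they were found in 0 of the 68 member probes, and in 0.435% and 0.393% of all probes of the array. This says only that the probes do not hold these letters, and the transcripts themselves were not searched.

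**Figure D3:**
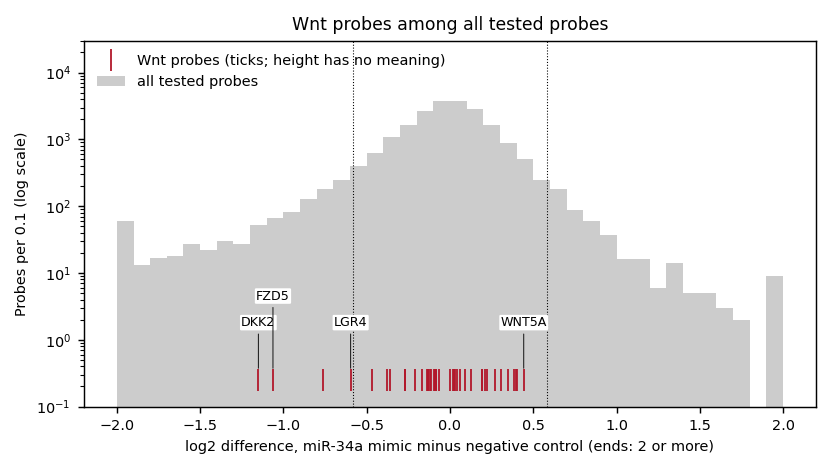
Distribution of the log2 difference (mimic minus negative control, horizontal axis) over all 21474 tested probes, as grey bars on a log scale of probes per bin, with the 42 Wnt probes as red ticks and dotted lines at 1.5-fold. Most Wnt probes lie between the lines, the 4 outside are all on the lower side, and DKK2 at -1.15 lies farthest out.

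The other genes of the pathway, 87 genes with 137 probes, were listed by textbook role. Of these, 71 genes with 101 probes were tested, 4 probes (3.96%, against 4.8% of all tested probes) were more than 1.5-fold lower by measured means and 0 were higher (against 2.11%), and 0 passed a limma adjusted p of 0.05. At an unadjusted limma p under 0.05, 18 were lower (17.8%, against 11.6% of all tested probes) and 15 higher (14.9%, against 12.7%), and the median difference was -0.03.

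The 4 probes belonged to TDGF1, FAM123B, RSPO3 and TLE3. FAM123B (now AMER1, a membrane anchor of APC) read -1.91 and -1.65 with the mimic and -0.86 and -0.98 with the control, 1.82-fold lower (limma adjusted p = 0.0954, 0.0403 with the variance trend). A second FAM123B probe was detected on no array. RSPO3, a ligand of LGR4, was not well above background on the mimic arrays, with -3.60 and -3.48 against -3.02 and -2.55. Against the lowest detected signals of the mimic arrays it was 1.39-fold lower, and a second RSPO3 probe was detected on no array. TDGF1, a Nodal co-receptor often listed as a Wnt target, was likewise undetected with the mimic, with -4.11 and -3.92 against -3.05 and -2.07. By the same measure it was 1.62-fold lower, but its control arrays differed by about 1 log2 unit. Neither of these folds is a strict lower bound. As with FZD5, RSPO3 and TDGF1 entered the test through the control arrays alone. TLE3, a co-repressor that binds TCF factors, was 1.55-fold lower (limma adjusted p = 0.363), with control arrays that differed by about 1 log2 unit (-2.47 and -1.50).

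With the variance trend, 9 of these probes (8.91%, against 3.6% of all tested probes) were lower and 1 (0.99%, against 3.81%) was higher at a limma adjusted p under 0.05. They were noted after their values were seen. KREMEN2, a membrane receptor for DKK proteins, was lower by 0.52, ROR1, a receptor for WNT5A, was lower by 0.52 and 0.37 on 2 of its 3 tested probes, while the third differed by -0.07 (limma adjusted p = 0.754 with the variance trend). ZNRF3, the partner enzyme of RNF43, was lower by 0.27 on 1 probe, with -0.18 on the other (limma adjusted p = 0.493 with the variance trend). The others that were lower were FAM123B, CCND1, 1 of 2 probes of CSNK1E and 2 of 4 tested probes of TLE1. The other CSNK1E probe was lower by 0.28, and the other 2 TLE1 probes by 0.33 and 0.16, without passing. Their limma adjusted p with the variance trend was 0.162, 0.051 and 0.18. The 1 that was higher was a probe of WLS, the carrier that brings Wnt proteins to the cell surface, by 0.34, and the other tested WLS probes differed by 0.18 and -0.04 without passing.

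**Figure D4:**
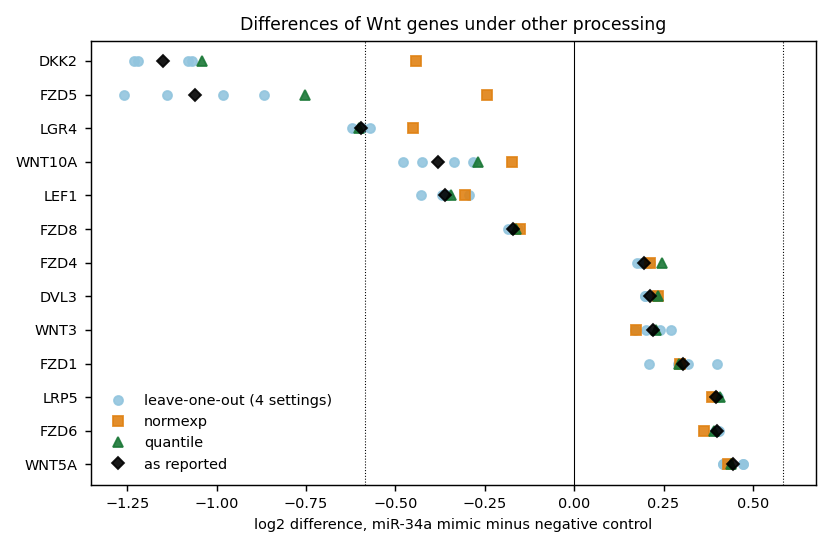
Log2 difference, mimic minus negative control (horizontal axis), of the 13 Wnt genes with an unadjusted limma p under 0.05, as reported (black), with normexp background correction, with quantile normalization, and with each array left out in turn. All 13 genes keep their side of 0 in these settings, and the dim probes of DKK2, FZD5 and WNT10A move most, with DKK2 at -0.44 and FZD5 at -0.24 under normexp.

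How far the differences depended on the processing varied between the genes. Across the 13 alternatives, the differences of LRP5 ran from 0.38 to 0.41, of FZD6 from 0.36 to 0.41, of WNT5A from 0.42 to 0.47 and of LGR4 from -0.62 to -0.45. In contrast, DKK2 ran from -1.23 to -0.44, WNT10A from -0.48 to -0.17 and FZD5, which the filter on all 4 arrays removes, from -1.26 to -0.24 in the others. With normexp, 5 member probes passed a limma adjusted p of 0.05, those of DKK2, FZD6, LGR4, LRP5 and WNT5A, all of which also passed with the variance trend, and with normexp 877 of all 21474 tested probes passed.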

How the data were processed

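For every one-color array the authors deposited the scanner output of Agilent Feature Extraction 10.7.3.1. The deposited intensity values used here were the processed signal, already background-subtracted and detrended, and the raw mean and local background signals, with flags for each spot. The table of values that the authors deposited for the series, also processed intensity, was used as an alternative. The methods name GeneSpring, but no scaling or test for the arrays, and the 1.5-fold threshold is the one used in the results of the study.

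Control spots and outlier-flagged spots (293 to 424 per array) were left out, 0 spots were saturated, and spots of a probe were averaged. From each log2 signal the 75th percentile of its array was subtracted. The tests were run in limma 3.58.1 (R 4.3.3, data.table version 1.17.8) over the 21474 probes detected on both arrays of at least 1 condition, and intervals are limma's 95% intervals. All arrays shared 1 slide and 1 scan, so neither could be a block. For a probe not well above background in a condition, a fold against the lowest detected signals is given. It sets the mean of the other condition against, per array, the higher of the lowest detected signal and the probe's own. This is not a strict bound, because undetected probes can read above the lowest detected signal. The number of arrays limits the precision, and the SD of the difference between replicates over all tested probes was 0.337 (mimic) and 0.29 (control).

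Values on every array were given for reported miR-34 targets, for members beyond 1.5-fold or at an unadjusted p under 0.05, and for genes whose tested probes differed by more than 0.58, and other pathway genes were named when beyond 1.5-fold. The members, gene lists and rules were chosen with earlier results of these data known. The alternatives were normexp (offset 50), quantile normalization, the percentile over detected probes, other filters, the series table, a replicate block, a variance trend, the methods' t-test, each array left out, and other probe choices. Calculations were tested on simulated data. Gene names and probe positions (hg19) were taken from the annotation in the files, and exons and UTRs were not looked up because the gene tables used here are of another build. miRNA sequences are RefSeq's (GRCh38.p14).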

Additional observations from a re-analysis of the deposited data

How the results depend on the processing

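Of 258 values recomputed for 20 named probes under 13 settings, 242 kept direction and stayed above the adjusted p threshold of 0.05. Another 13 kept direction and fell under that threshold. The 1.5-fold line played no part in these counts. The remaining 3 changed sign, all with an array left out. The CTNNB1 probe at -0.10 gave 0.0989 without mimic replicate 1 (range -0.292 to 0.0989). The TCF7L2 probe at 0.03 gave -0.0805 without mimic replicate 1 and -0.018 without control replicate 2 (range -0.0805 to 0.136). The members beyond 1.5-fold lower numbered 4 as reported, 0 with normexp, 3 with quantile normalization, 9 with no filter on dim probes and 2 with the filter that demands detection on all arrays, and 4 with each array left out. The 4 were not the same probes each time: without mimic replicate 2 a DVL1 probe (-0.78) took the place of TCF7L2, and without control replicate 1 a DKK3 probe (-0.78) took that of LGR4. Members at a limma adjusted p under 0.05 numbered 0 as reported, 5 with normexp (877 over all tested probes), 8 with the variance trend (1591 over all), and 0 in the other settings, each array left out included. Other pathway probes beyond 1.5-fold lower numbered 4 as reported, 0 with normexp, 2 with quantile normalization, 13 with no filter, 2 with the filter that demands detection on all arrays and 4 to 8 with an array left out (8 without mimic replicate 1); those higher numbered 0 as reported, 1 with quantile normalization, 2 with no filter and 0 to 1 with an array left out (1 without mimic replicate 2 and 1 without control replicate 2). Over all tested probes the counts lower and higher were 1030 and 453 as reported, 185 and 68 with normexp, 775 and 702 with quantile normalization (52.5% of calls lower, against 69.5%), 6823 and 2070 with no filter, 512 and 285 with the filter that demands detection on all arrays, and 990 to 1421 and 527 to 567 with an array left out. The median member difference ran from -0.0902 to -0.033. With the largest difference per gene in place of the brightest probe, 4 member genes were beyond 1.5-fold lower, and 3 with the mean over probes. FZD5 was 2.09-fold lower by its measured means and 1.47-fold against the lowest detected signals of the mimic arrays.

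With an array left out, the lone array of its condition is assumed to vary like the other condition. Arrays with the same replicate number showed no shared deviation (correlation of same-numbered deviations -0.0276). This cannot show whether they were prepared together. With the number as a replicate block, the difference of LGR4 stayed at -0.596 with a limma adjusted p of 0.223, 0 members passed, and 21.4% of member probes had an unadjusted limma p under 0.05, against 31% without the block, beside 19.5% and 24.3% of all tested probes. By the methods' t-test, 28.6% of member probes and 19.6% of all tested probes were under the unadjusted threshold, and after Benjamini-Hochberg 0 members and 1 of all tested probes passed. Quantile normalization shifted the median of all probes by 0.0272. Dim probes near the background limit what can be said of FZD5, TCF7L2, WNT10A and the undetected ligands. The cause of the shifts between settings was not tested.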

Other observations

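Of the ligands that were detected on some arrays but could not be tested, WNT8B read -4.21 and -4.97 on the mimic arrays and -2.73 and -2.62 on the control arrays, well above background on 1 control array only, and WNT2B read -3.16 and -2.61 against -4.72 and -1.67, well above background on 1 array of each condition. MYC, a frequently studied transcriptional target of the pathway, was higher with the mimic by 0.53 (limma adjusted p = 0.0954, 0.131 with the variance trend). Its other probe was detected on no array. CCND1, another such target, was lower by 0.21 (limma adjusted p = 0.146, 0.0479 with the variance trend). Neither was beyond 1.5-fold, the rule for naming other pathway genes. Of the 21 tested probes of such targets, 11 were lower and 10 higher.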
